A study of Mus musculus with 12 samples.

Results

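Matrix metalloproteinases (MMPs), ADAMTS proteases, ADAMTS-like proteins and the tissue inhibitors of metalloproteinases (TIMPs) were examined in RNA-seq of inguinal white adipose tissue (iWAT). The members were all genes of the raw count table named Mmp with a number (with or without a or b), Adamts or Adamtsl with a number, or Timp1 to Timp4. This gave 51 of 54134 genes: 23 MMP, 19 ADAMTS, 5 ADAMTS-like and 4 TIMP genes. Of these, 38 had enough reads to be tested, among 15585 genes tested in all: 13 MMP, 16 ADAMTS, 5 ADAMTS-like and 4 TIMP genes. The tissue came from 12 male C57BL/6J mice, each sequenced as 1 sample. Through the tail vein, 6 mice received at 8 weeks of age an adeno-associated virus (AAV) that expresses green fluorescent protein (AAV-GFP mice), and 6 received one that expresses mouse Notum (AAV-Notum mice). In both viruses the insert was driven by the promoter of thyroxine-binding globulin, which is meant to direct expression to the liver. All mice then ate chow for 4 weeks and were fasted for 4 h before collection, at about 12 weeks of age. The comparison addressed which of these matrix genes differed in the fat of mice whose livers overexpress NOTUM, a secreted carboxylesterase that inactivates Wnt proteins by removing their lipid.

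MMPs are zinc endopeptidases that are made as inactive proenzymes and degrade collagens, gelatin and other matrix proteins, at the cell surface or after secretion. ADAMTS proteases are secreted enzymes with thrombospondin repeats that cleave proteoglycans such as versican, trim procollagens or cut other matrix proteins, whereas ADAMTS-like proteins carry similar repeats without a protease domain and associate with microfibrils. TIMPs bind the active site of these enzymes and block it, and Timp3, which stays bound to the matrix, inhibits ADAMTS and ADAM proteases as well as MMPs. In white fat the balance of these proteins is known to govern how the matrix around adipocytes is remodelled as the depot grows and gains vessels.

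Total counts ran from 14711113 to 21618860 per mouse. The RNA integrity number was between 5.7 and 7.6 in AAV-GFP mice and between 6.9 and 7.4 in AAV-Notum mice, and mouse S_2012 of the AAV-GFP group was the only one whose RNA was isolated on a later day. Adipoq, which encodes the adipocyte hormone adiponectin, stood between 2194 and 5222 CPM (counts scaled to library size, with edgeR's TMM method) in all 12 mice, as the tissue label calls for. Notum itself had 0.0595 to 0.995 CPM in the fat of AAV-GFP mice and 0.457 to 29.3 CPM in that of AAV-Notum mice, so the groups overlapped for this gene, whose transgene was aimed at the liver. Lymphoid transcripts differed widely between AAV-GFP mice. The mean of 15 lymphoid marker genes was 0.16 and -0.46 on the log2 CPM scale in mice S_2011 and S_2014 and 3.85 in mouse S_2012, against 6.31 to 6.92 in the other AAV-GFP mice and 5.23 to 7.32 in AAV-Notum mice. In whole tissue, fewer cells of a type and less RNA per cell cannot be told apart.

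Compared per length of exon (CPM per kb of annotated exons), the inhibitor Timp2 stood at the top of the order in both groups. Timp1 was far lower, in place 23 in AAV-GFP mice and place 20 in AAV-Notum mice. In AAV-GFP mice Timp2 had the highest mean level, 69.5 CPM per kb, followed by Timp3 with 48.8, Mmp2 with 47.4, Timp4 with 45.2 and Mmp3 with 39.8. Adamts5 was the highest of the ADAMTS genes with 19.5 CPM per kb, ahead of Mmp19 with 18.8 and Mmp14 with 14.998. In AAV-Notum mice Timp2 was again first with 58.1 CPM per kb, while Mmp2 with 38.5 and Mmp3 with 32.4 came before Timp3 with 29.98. Timp4 had 13.6 CPM per kb there and stood in place 7, compared with place 4 in AAV-GFP mice. All 5 ADAMTS-like genes were below 6 CPM per kb in both groups, with Adamtsl4 the highest at 5.63 and 3.44. The place of Timp3 in this order depends on the count table. The raw counts used here hold 67210 reads of Timp3 in all mice, and the normalized table deposited beside them rests on 28825. With that table (an alternative chosen after seeing the data), Timp3 had 21.7 and 12.0329 CPM per kb and stood in place 5 in AAV-GFP mice and place 6 in AAV-Notum mice, behind Mmp2, Timp4 and Mmp3 in both groups, and Mmp19 had 12.9 in AAV-GFP mice.

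Between the groups, 13 of the 38 tested members (34.2%) were lower in AAV-Notum mice at an unadjusted p under 0.05 in edgeR's quasi-likelihood test, and 0 were higher. Over all genes tested, 9.54% were lower at this threshold and 4.64% were higher. After Benjamini-Hochberg adjustment over all genes, 0 members had an adjusted p under 0.05 with edgeR (0.0513% of all genes did), with limma-voom also 0, and the 13 members had adjusted p-values between 0.102 and 0.323. DESeq2 gave 5 members an adjusted p under 0.05, all of them lower in AAV-Notum mice (13.2% of the tested members, against 2.17% of all genes lower and 0.481% higher by that test). These were Adamtsl2 (DESeq2 adjusted p = 0.00119), Timp4 (0.00386), Timp3 (0.0135), Adamts1 (0.0288) and Adamts2 (0.0374). At any p, 26 members were lower and 12 higher (68.4% lower, against 48.8% of all genes), and the median log2 fold change of the tested members was -0.31, against 0.0077 over all genes. For Adamtsl2, Adamtsl3 and Mmp17, all 6 AAV-Notum mice lay under the lowest of the AAV-GFP mice (7.89% of tested members, against 0.693% of all genes below and 0.398% above in this way). By family, 4 of 5 ADAMTS-like genes (median log2 fold change -0.60), 2 of 4 TIMPs (-0.48), 6 of 16 ADAMTS genes (-0.24) and 1 of 13 MMPs (-0.22) had an unadjusted p under 0.05. Whether the families differ from each other was not tested.

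**Figure D1:**
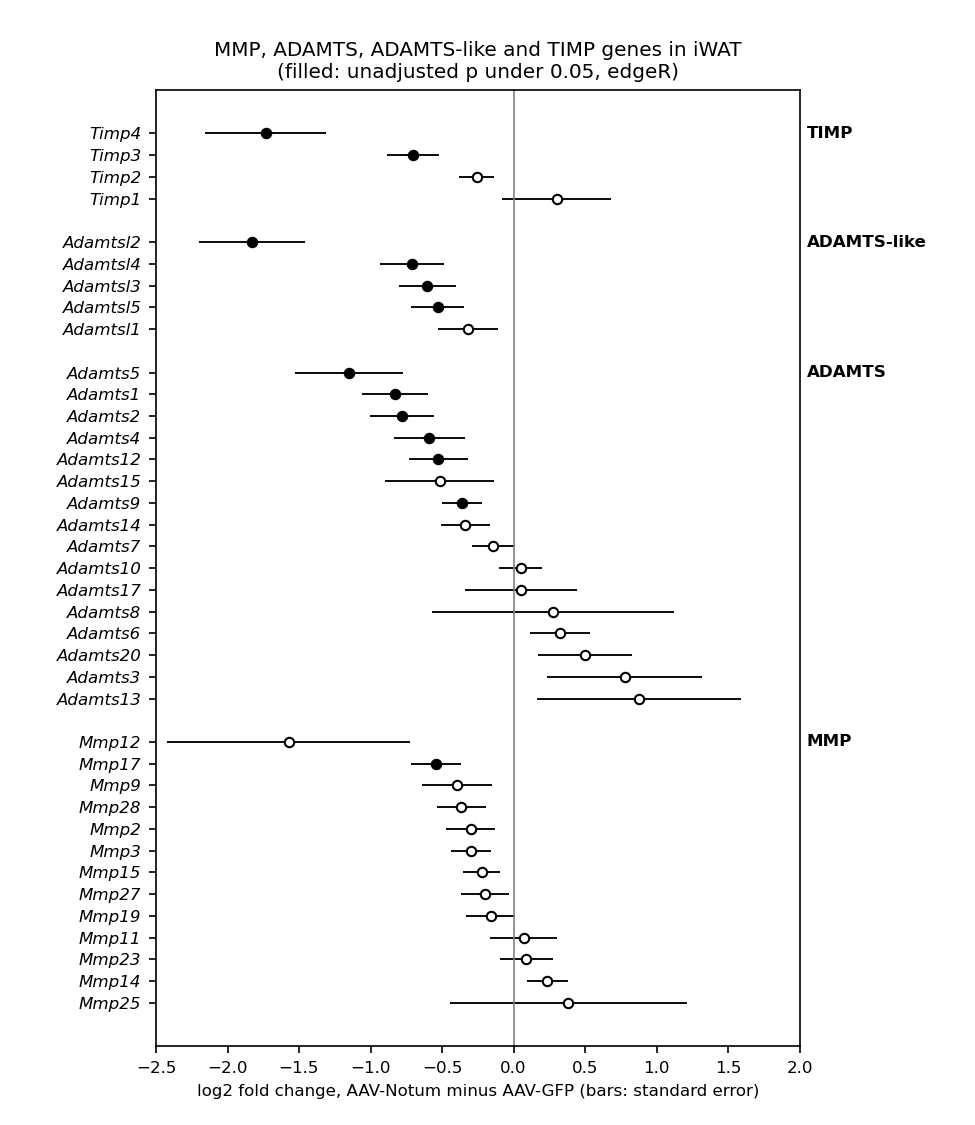
Log2 fold change (AAV-Notum minus AAV-GFP, x axis) of the 38 tested MMP, ADAMTS, ADAMTS-like and TIMP genes by family, with standard errors as bars. The 13 filled points, with an unadjusted p under 0.05 in edgeR, all lie below 0.

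Timp4, the TIMP with the most tissue-restricted expression, had 68.9, 250.3 and 494 CPM as the lowest, median and highest value in AAV-GFP mice and 61.3, 76.3 and 107 CPM in AAV-Notum mice. AAV-GFP mice spread over this whole range: mice S_2011 (494 CPM), S_2014, S_2012 and S_2021 (246 CPM) were above every AAV-Notum mouse, and mice S_2013 (96.5 CPM) and S_2022 (68.9 CPM) were within the AAV-Notum range. The mean was 266 ± 173 CPM against 80.1 ± 16.5 CPM (SD, n = 6 each). This gave a log2 fold change of -1.73 (standard error 0.42, edgeR p = 0.00146, adjusted p = 0.140), with p = 0.0260 in a two-sided exact permutation test. Without mice S_2011 and S_2014, which had few lymphoid transcripts, the log2 fold change of Timp4 was -1.06 (edgeR adjusted p = 0.542), and with the lymphoid marker level as a covariate it was -0.78 (edgeR adjusted p = 0.436), each time with an unadjusted p under 0.05. Timp4 (ENSMUSG00000030317) lies on chromosome 6 of GRCm38 from 115241892 to 115252205, inside the gene Syn2 and on the opposite strand.

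Timp3 had 273, 413 and 533 CPM as the lowest, median and highest value in AAV-GFP mice and 183, 236 and 351 CPM in AAV-Notum mice. In 5 AAV-Notum mice the level was below that of every AAV-GFP mouse, and mouse S_2042, at 351 CPM, was the exception. The log2 fold change of Timp3 was -0.70 (standard error 0.18, edgeR p = 0.00216, adjusted p = 0.150, exact permutation p = 0.00649), from 397 ± 89.4 to 244 ± 58.6 CPM (SD, n = 6 each), 38.5% lower. It kept an unadjusted p under 0.05 without mice S_2011 and S_2014 (-0.66, edgeR adjusted p = 0.542) and with the lymphoid covariate (-0.51, edgeR adjusted p = 0.444). Timp3 (ENSMUSG00000020044) lies on chromosome 10 from 86300372 to 86349506, within Syn3.

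Timp2, a broadly expressed inhibitor that also takes part in activating proMMP2 together with MMP14, had 192, 266 and 341 CPM as the lowest, median and highest value in AAV-GFP mice and 206, 222 and 254 CPM in AAV-Notum mice. The groups overlapped, and its log2 fold change of -0.26 (standard error 0.12) missed the threshold (edgeR p = 0.0545, exact permutation p = 0.0887). Timp2 had an unadjusted p under 0.05 without mice S_2011 and S_2014 (-0.31, edgeR adjusted p = 0.542), without mouse S_2014 alone (-0.34, edgeR adjusted p = 0.288), without mouse S_2042 (-0.30) and with DESeq2 (-0.25, adjusted p = 0.309). Timp1, the TIMP best known for its induction in inflamed and fibrotic tissue, was scarce, with 0.834, 1.54 and 3.63 CPM in AAV-GFP mice and 0.890, 2.47 and 2.98 CPM in AAV-Notum mice (14 to 59 reads per mouse). The difference of 0.30 on the log2 scale had a standard error of 0.38 (edgeR p = 0.444, exact permutation p = 0.442), and 4 of the 6 AAV-Notum values exceeded the mean of AAV-GFP mice. Single mice decided its size: without mouse S_2022, the highest of the AAV-GFP group, the difference was 0.65 (edgeR adjusted p = 0.240), without mouse S_2014 it was 0.16 (edgeR adjusted p = 0.869), and all 12 values with 1 mouse left out missed the unadjusted threshold.

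All 5 ADAMTS-like genes had a lower mean in AAV-Notum mice, although their reads were few. Adamtsl2, whose product binds latent TGF-beta binding protein and fibrillin microfibrils and is mutated in geleophysic dysplasia (ENSMUSG00000036040, chromosome 2 from 27079379 to 27108981), had 1.11, 2.35 and 3.92 CPM as the lowest, median and highest value in AAV-GFP mice and 0.339, 0.654 and 1.10 CPM in AAV-Notum mice. The groups did not overlap, but only just: the highest AAV-Notum mouse (1.10 CPM, 21 reads) lay beside the lowest AAV-GFP mouse (1.11 CPM, 19 reads). With 6 to 70 reads per mouse, Adamtsl2 had the largest fitted difference of the 38 members (log2 fold change -1.83, standard error 0.37, edgeR p = 3.35e-04, adjusted p = 0.102; exact permutation p = 0.00216, the smallest that 6 mice against 6 allow). Its log2 fold change was between -2.04 and -1.62 when each mouse was left out in turn, -1.51 without mice S_2011 and S_2014 and -1.44 with the lymphoid covariate.

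Adamtsl3, which is known as punctin-2, had 3.69, 4.34 and 7.92 CPM in AAV-GFP mice and 2.72, 3.12 and 3.66 CPM in AAV-Notum mice. These groups too were separated by a narrow gap, and 5 of the 6 AAV-GFP values were below 5 CPM, with mouse S_2012 the highest. The log2 fold change of Adamtsl3 was -0.60 (standard error 0.20, edgeR p = 0.0100, adjusted p = 0.221, exact permutation p = 0.00216), and -0.74 without mice S_2011 and S_2014. Without mouse S_2012 it was -0.40 (edgeR adjusted p = 0.417), the smallest value with 1 mouse left out, still with an unadjusted p under 0.05. Adamtsl4, mutated in families with dislocated lenses and a partner of fibrillin-1, had 13.1, 27.0 and 30.9 CPM in AAV-GFP mice and 11.8, 14.5 and 16.6 CPM in AAV-Notum mice. Of the AAV-GFP mice, 4 had 25 CPM or more and were above every AAV-Notum mouse, while mice S_2013 and S_2022 were at 13.3 and 13.1 CPM. The log2 fold change of Adamtsl4 was -0.71 (standard error 0.22, edgeR p = 0.00796, exact permutation p = 0.0455). Adamtsl5 had 7.45, 9.34 and 14.9 CPM in AAV-GFP mice and 5.84, 7.33 and 8.35 CPM in AAV-Notum mice, with -0.53 as its log2 fold change (standard error 0.19, edgeR p = 0.0150, exact permutation p = 0.0152). Both genes missed the unadjusted threshold with the lymphoid covariate (Adamtsl4 -0.43, edgeR adjusted p = 0.596, and Adamtsl5 -0.26, edgeR adjusted p = 0.713) and without mice S_2011 and S_2014 (-0.52 and -0.40, edgeR adjusted p = 0.708 and 0.710). Adamtsl1, or punctin-1, differed by less (12.1 ± 3.04 against 9.73 ± 2.84 CPM, SD, n = 6 each, log2 fold change -0.32, exact permutation p = 0.169). With 1 mouse left out Adamtsl1 was between -0.47 and -0.20, and it passed the unadjusted threshold only without mouse S_2042 (-0.47).

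Among the ADAMTS proteases that cleave aggrecan and versican, 4 of 7 tested members were lower at an unadjusted p under 0.05 (9.54% of all genes were), with a median log2 fold change of -0.52 over the 7. Adamts5, a major aggrecanase, had 62.9, 191 and 391 CPM as the lowest, median and highest value in AAV-GFP mice and 72.9, 89.8 and 131 CPM in AAV-Notum mice. As for Timp4, mice S_2011, S_2014, S_2021 and S_2012 were above every AAV-Notum mouse, and mouse S_2022 was below every one. The mean was 211 ± 127 and 94.97 ± 21.0 CPM (SD, n = 6), with a log2 fold change of -1.15 (standard error 0.38, edgeR p = 0.00966, adjusted p = 0.219), and the exact permutation p was 0.0671. Without mice S_2011 and S_2014 its log2 fold change was -0.55 (edgeR adjusted p = 0.760) and with the lymphoid covariate -0.41 (edgeR adjusted p = 0.706), and the unadjusted threshold was missed both times.

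Adamts1, which cleaves versican and aggrecan, had 29.3, 50.4 and 64.5 CPM in AAV-GFP mice and 20.3, 26.4 and 38.8 CPM in AAV-Notum mice. Mice S_2011, S_2012 and S_2014 were above 60 CPM, and mouse S_2021, at 39.2 CPM, was just above the highest AAV-Notum mouse. The log2 fold change of Adamts1 was -0.83 (standard error 0.23, edgeR p = 0.00363, adjusted p = 0.166, exact permutation p = 0.0152), and it kept an unadjusted p under 0.05 without mice S_2011 and S_2014 (-0.61, edgeR adjusted p = 0.635) and with the lymphoid covariate (-0.40, edgeR adjusted p = 0.493). Adamts9, another versican-cleaving enzyme, had 37.7, 59.1 and 68.3 CPM in AAV-GFP mice and 33.9, 43.9 and 53.8 CPM in AAV-Notum mice (log2 fold change -0.36, standard error 0.14, edgeR p = 0.0260, exact permutation p = 0.0498). Adamts4, the other well-known aggrecanase, had 3.39, 4.91 and 8.46 CPM in AAV-GFP mice and 2.57, 3.15 and 5.37 CPM in AAV-Notum mice (log2 fold change -0.59, standard error 0.25, edgeR p = 0.0354, exact permutation p = 0.0498). These last values were the least stable: leaving out 1 mouse took Adamts4 out of the unadjusted threshold for 6 of the 12 mice (S_2012, S_2022, S_2031, S_2032, S_2041 and S_2042, unadjusted edgeR p-values of up to 0.101) and Adamts9 for 5 (S_2011, S_2012, S_2021, S_2031 and S_2032, up to 0.0644). With the lymphoid covariate both missed the threshold (Adamts4 -0.60, edgeR adjusted p = 0.569, and Adamts9 -0.24, edgeR adjusted p = 0.686), and without mice S_2011 and S_2014 Adamts9 did (-0.32, edgeR adjusted p = 0.747).

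Adamts2, the main enzyme that removes the N-propeptide from procollagens (chromosome 11 from 50602084 to 50807573), had 67.6, 132 and 172 CPM as the lowest, median and highest value in AAV-GFP mice and 55.5, 65.2 and 85.3 CPM in AAV-Notum mice. Again 4 AAV-GFP mice, at 129 CPM or more, were above every AAV-Notum mouse, and mice S_2013 and S_2022 were not. The log2 fold change of Adamts2 was -0.78 (standard error 0.22, edgeR p = 0.00438, adjusted p = 0.170, exact permutation p = 0.0260), 41.9% lower. It was -0.54 without mice S_2011 and S_2014 (edgeR adjusted p = 0.643) and -0.41 with the lymphoid covariate (edgeR adjusted p = 0.538), each time with an unadjusted p under 0.05. The other procollagen N-proteinases were scarcer and missed the threshold: Adamts14 had 9.06 ± 1.74 and 7.17 ± 1.61 CPM (SD, n = 6 each, log2 fold change -0.34, exact permutation p = 0.0758), and Adamts3, with 1 to 22 reads per mouse, was higher in AAV-Notum mice by 0.78 on the log2 scale (standard error 0.54, exact permutation p = 0.102). Without mouse S_2022 the difference of Adamts3 was 1.23, with an unadjusted edgeR p under 0.05. Adamts12, which cleaves cartilage oligomeric matrix protein, had 83.3, 123 and 172 CPM in AAV-GFP mice and 65.0, 86.5 and 120.1 CPM in AAV-Notum mice. Its value of -0.53 on the log2 scale (standard error 0.21, edgeR p = 0.0255, exact permutation p = 0.0541) lost the threshold without any 1 of mice S_2011, S_2012, S_2032 and S_2034, with an edgeR p of up to 0.0674. The threshold was also missed without both S_2011 and S_2014 (-0.37, edgeR adjusted p = 0.786), with the lymphoid covariate (-0.19, edgeR adjusted p = 0.808) and with RNA integrity as the covariate (-0.41, edgeR adjusted p = 0.604). Adamts10, a binding partner of fibrillin-1 that is mutated in Weill-Marchesani syndrome, was level between the groups within its error (64.2 ± 9.38 and 66.4 ± 13.9 CPM, SD, n = 6 each, log2 fold change 0.05, standard error 0.15, exact permutation p = 0.842).

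**Figure D2:**
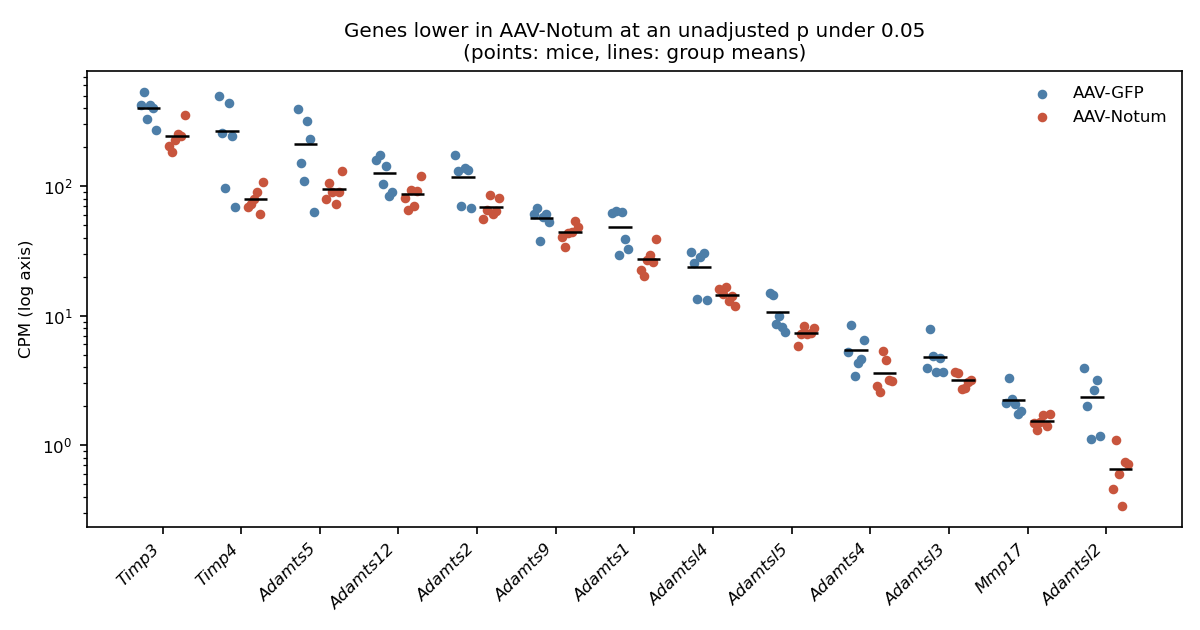
CPM on a log axis, in each mouse, of the 13 genes that were lower in AAV-Notum mice at an unadjusted p under 0.05 (edgeR), ordered by level. Points are mice and lines are group means of 6 mice. For Timp4, AAV-GFP mice run from 68.9 to 494 CPM while AAV-Notum mice stay between 61.3 and 107 CPM.

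Of the 13 tested MMPs, 1 was lower at an unadjusted p under 0.05 (9.54% of all genes were). The gelatinase gene Mmp2, the most abundant MMP per length, had 118, 144 and 223 CPM as the lowest, median and highest value in AAV-GFP mice and 114, 123 and 160.2 CPM in AAV-Notum mice. Only mice S_2011 and S_2012 were above every AAV-Notum mouse, and the log2 fold change of -0.30 (standard error 0.17) missed the threshold (edgeR p = 0.0998, exact permutation p = 0.184). The other gelatinase gene, Mmp9, which white blood cells also make, had 12.9, 19.1 and 44.0 CPM in AAV-GFP mice and 15.3, 17.8 and 20.4 CPM in AAV-Notum mice. Its mean difference rested on mouse S_2011: -0.40 was the log2 fold change over all mice (standard error 0.25, edgeR p = 0.133, exact permutation p = 0.307), and without this mouse it was -0.12. Mmp3, or stromelysin-1, had 57.0, 72.5 and 89.9 CPM in AAV-GFP mice and 44.5, 58.7 and 76.5 CPM in AAV-Notum mice. The groups overlapped over most of their range (log2 fold change -0.30, standard error 0.14, edgeR p = 0.0564, exact permutation p = 0.0844). The study itself reported Mmp3 as significantly decreased in this iWAT by its own RNA-seq test, and found a decrease by qPCR too.

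Mmp14, the membrane-type MMP that activates proMMP2 and cleaves fibrillar collagen at the surface of cells, was one of 4 MMPs with a higher mean in AAV-Notum mice. It had 60.6, 93.7 and 103 CPM in AAV-GFP mice and 86.1, 103 and 137 CPM in AAV-Notum mice, with a fitted log2 difference of 0.24 (standard error 0.14, edgeR p = 0.123, exact permutation p = 0.145). The only MMP with an unadjusted p under 0.05 was Mmp17, another membrane-type gene (chromosome 5 from 129584169 to 129611099). Mmp17 had 1.75, 2.11 and 3.28 CPM in AAV-GFP mice and 1.31, 1.499 and 1.75 CPM in AAV-Notum mice, with 23 to 55 reads behind each value. The groups did not overlap, yet the lowest AAV-GFP mouse and the highest AAV-Notum mouse both rounded to 1.75 CPM (log2 fold change -0.54, standard error 0.17, edgeR p = 0.00846, adjusted p = 0.214, exact permutation p = 0.00216). With the lymphoid and hepatocyte marker levels as covariates it was -0.52 and missed the unadjusted threshold. Mmp28, or epilysin, had 46.8 ± 10.1 and 36.4 ± 7.86 CPM (SD, n = 6 each, log2 fold change -0.36, exact permutation p = 0.0823), and Mmp19 had 66.5 ± 10.8 and 59.5 ± 15.6 CPM (SD, n = 6 each, log2 fold change -0.16, exact permutation p = 0.344). Mmp3 and Mmp28 had an unadjusted p under 0.05 with DESeq2 (-0.29 and -0.36), with RLE size factors in edgeR (-0.29 and -0.36) and without mouse S_2013 (-0.35 and -0.43) or mouse S_2042 (-0.39 and -0.46), as Mmp2 had without mouse S_2022 (-0.37) and Mmp9 without mouse S_2013 (-0.52).

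The other 15 tested members had mean levels of 0.577 to 21.1 CPM, and the smallest edgeR p among them was 0.0758. Their log2 fold changes ran from -1.57 (Mmp12) to 0.88 (Adamts13), and the extremes belonged to genes with a wide spread between AAV-GFP mice. Mmp12, the macrophage elastase, had 3.14, 18.02 and 119.8 CPM in AAV-GFP mice and 3.45, 6.21 and 23.5 CPM in AAV-Notum mice, the highest value being that of mouse S_2011. Without this mouse the log2 fold change of Mmp12 was -0.36 (edgeR adjusted p = 0.832), compared with an adjusted p of 0.401 with it. Adamts13, at the other extreme, had a log2 fold change of 0.36 without mice S_2011 and S_2014 (edgeR adjusted p = 0.930) and of -0.0053 with the lymphoid covariate. Mmp25, a membrane-type MMP of leukocytes, had 0.179, 2.64 and 16.996 CPM in AAV-GFP mice and 2.65, 7.496 and 9.91 CPM in AAV-Notum mice. Its lowest values were in the AAV-GFP mice with the fewest lymphoid transcripts, 0.179 CPM in mouse S_2014, 0.280 CPM in mouse S_2011 and 1.55 CPM in mouse S_2012. Mmp12, Mmp25, Adamts13, Adamts14 and Adamts3 were singled out after their values were seen.

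A further 13 members had too few reads to test. Mmp1a and Mmp1b had 0 reads in all mice, which at 95% confidence allows an expected count of up to about 3 over the 12 libraries (counting error only), and the remaining 11 had between 2 and 109 reads in all 12 mice together, at most 22 in any 1 mouse. All 4 genes of the collagenase class were among them (Mmp1a, Mmp1b, Mmp8 with 24 reads and Mmp13 with 70 reads), as were matrilysin (Mmp7, 50 reads), Mmp10, Mmp16, Mmp20, Mmp21, Mmp24, Adamts16, Adamts18 and Adamts19. None of these was tested with edgeR as described. Mmp13, with 1 to 11 reads per mouse, was higher in AAV-Notum mice at an unadjusted p under 0.05 with DESeq2 (log2 fold change 1.08) and in edgeR with genes kept from 1 count over all mice (1.06).

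Summed per length over a family, the tested TIMPs came to 165 ± 40.2 CPM per kb (SD, n = 6) in AAV-GFP mice, from 113 to 217, and to 104 ± 13.1 CPM per kb (SD, n = 6) in AAV-Notum mice, between 95.5 and 129.9. The ADAMTS sum was 72.1 ± 19.9 against 47.3 ± 3.85 CPM per kb, and the ADAMTS-like sum 9.74 ± 2.78 against 6.25 ± 0.400 CPM per kb (SD, n = 6 each). The MMP sum was 158 ± 31.6 against 136 ± 16.8 CPM per kb. The ratio of the TIMP sum to the MMP sum was therefore 1.04 ± 0.153 (0.816 to 1.29) in AAV-GFP mice and 0.771 ± 0.0789 (0.619 to 0.838) in AAV-Notum mice. In 5 of 6 AAV-GFP mice it was above every AAV-Notum mouse, and mouse S_2022, at 0.816, was the exception. With the reads of the normalized table the TIMP sum was 139.6 ± 35.7 against 87.0 ± 8.68 CPM per kb and the ratio 0.922 ± 0.145 against 0.681 ± 0.0753 (SD, n = 6 each), again with mouse S_2022 as the exception. These sums weigh abundant genes most and are levels of RNA, given as a description with no test.

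**Figure D3:**
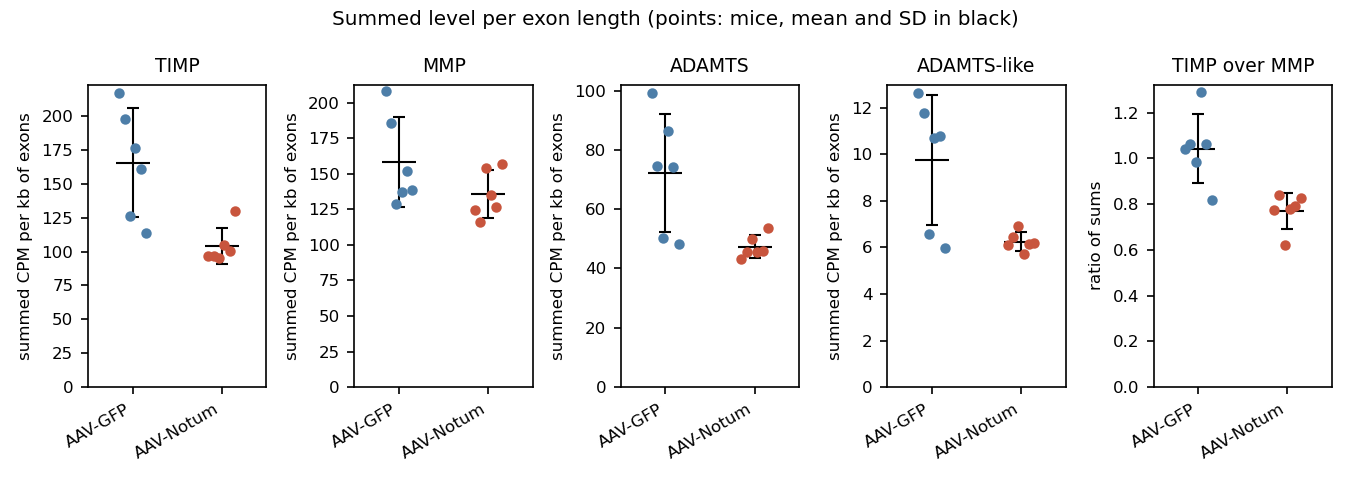
Summed level of the tested genes of each family in each mouse (CPM per kb of exons) and the ratio of the TIMP sum to the MMP sum, with mean and SD in black (n = 6). In the AAV-Notum group the TIMP sums lie between 95.5 and 129.9, and in the AAV-GFP group between 113 and 217.

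The lower members did not stand apart in all AAV-GFP mice alike. Of the 13, mouse S_2012 was above every AAV-Notum mouse for 13, mice S_2011 and S_2014 for 12 each and mouse S_2021 for 10, while mice S_2013 and S_2022 were so for 4 each. The 13 were chosen as lower in these same mice, so values above the AAV-Notum mice follow in part from that choice. The same count was not made over all lower genes, so the pattern cannot be called particular to these members. The spread between mice was wider in the AAV-GFP group: the SD of log2 CPM was larger there for 30 of 38 members (78.9%, against 63.9% of all genes), with a median of 0.44 against 0.32 in AAV-Notum mice (over all genes 0.30 and 0.27). Marker genes of cell types also differed between these mice. Mice S_2013 and S_2022 had the lowest means of 8 adipocyte markers in the group, 10.68 and 10.43 on the log2 CPM scale, against 11.17 to 11.61 in the other 4, and AAV-Notum mice ran from 10.48 to 11.57. The lymphoid markers were low in mice S_2011, S_2014 and S_2012, as given above, but not in mouse S_2021 (6.31). Hepatocyte markers had means of 2.45 to 9.15 in AAV-GFP mice, highest in mice S_2013 and S_2014, and of 2.17 to 6.996 in AAV-Notum mice.

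Over each marker list, 0 of 8 adipocyte, 0 of 15 lymphoid, 2 of 8 hepatocyte, 3 of 8 progenitor and fibroblast, 2 of 8 macrophage, 2 of 8 endothelial and 2 of 8 smooth muscle genes were lower in AAV-Notum mice at an unadjusted p under 0.05 (edgeR). The median log2 fold changes of the lists were -0.23, 0.99, -2.79, -0.24, -0.09, -0.27 and -0.27 in the same order. At this threshold 9.54% of all genes were lower and 4.64% higher. Of the other marker lists, 0 of 8 skeletal muscle, 0 of 6 Schwann cell, 0 of 5 mast cell, 0 of 4 neutrophil and 0 of 2 epithelial genes were lower and 1 mast cell gene was higher, with list medians of 1.39, -0.46, 0.23, 0.08 and 0.34. The skeletal muscle mean spread from -0.14 to 6.11 on the log2 CPM scale in AAV-GFP mice and from -0.96 to 8.38 in AAV-Notum mice, highest in mouse S_2042. The mean progenitor and macrophage levels overlapped widely between the groups, with list means of 5.71 to 6.69 and 6.06 to 6.40 for progenitors and of 5.56 to 6.68 and 5.95 to 6.64 for macrophages (log2 CPM, AAV-GFP then AAV-Notum). Without mice S_2011 and S_2014, 9 of 38 members were lower at an unadjusted p under 0.05 (23.7%, against 4.95% of all genes in that fit). With the lymphoid marker level as a covariate 7 were (18.4%, against 4.90%), and with the lymphoid and hepatocyte levels together 12 were (31.6%, against 4.57%). The progenitor covariate gave 13 (34.2%, against 8.77%) and RNA integrity 12 (31.6%, against 5.95%). The joint and progenitor fits were chosen after the data were seen. With the adipocyte marker level as a covariate 13 were (34.2%, with 1566 of all 15585 genes). In the last fit, chosen after the data were seen, Timp3 (edgeR adjusted p = 0.0165), Adamts1 (0.0204) and Adamtsl2 (0.0477) passed the adjusted threshold. Without mouse S_2012, whose RNA was isolated later, 10 were (26.3%, against 7.11%). The part of these cell types, and of the isolation day, in the differences was not tested.

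**Figure D4:**
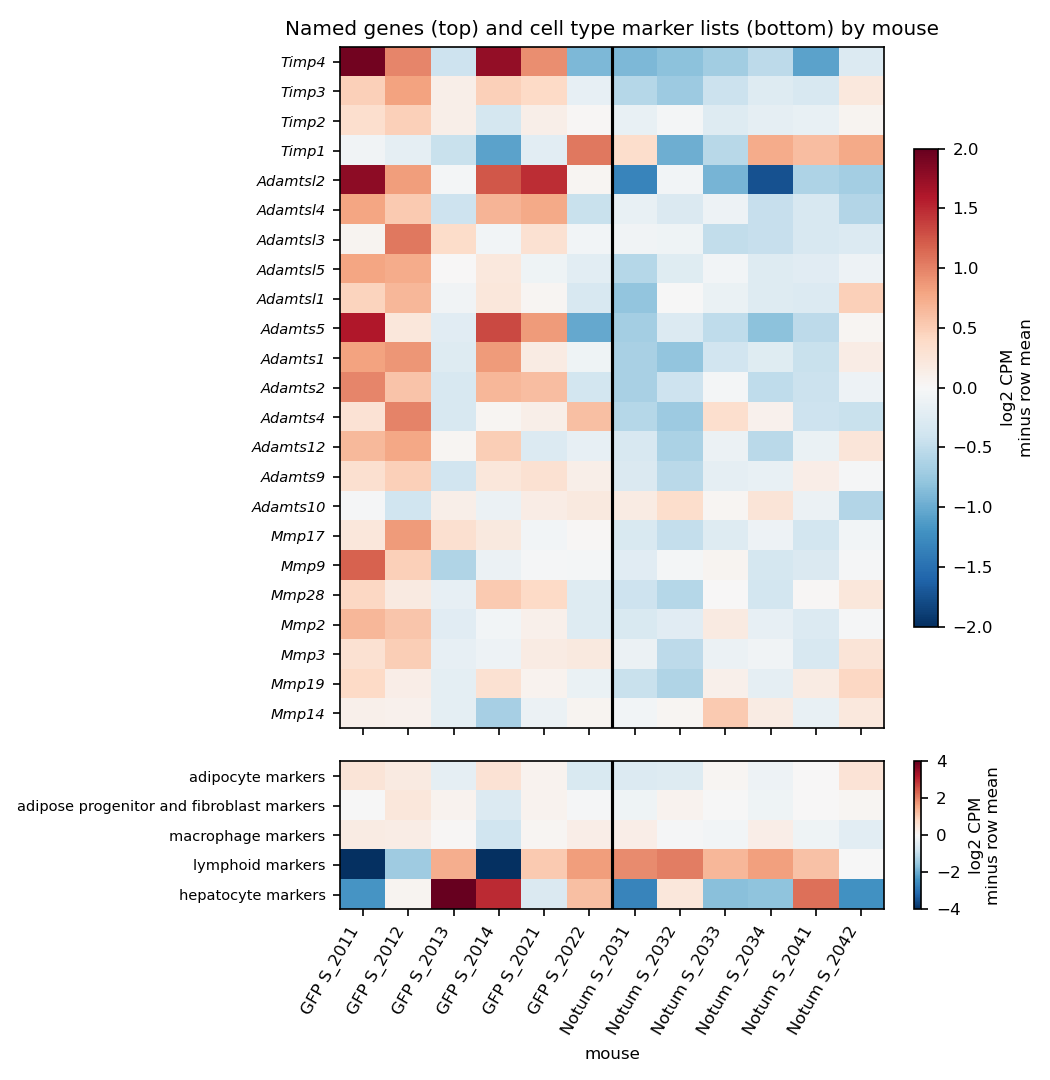
Log2 CPM minus the mean of the row, for the 23 genes described with full values (top) and for 5 cell type marker lists (bottom), in the 6 AAV-GFP mice and the 6 AAV-Notum mice (columns), with colours capped at the ends of each scale. The columns of mice S_2011, S_2012, S_2014 and S_2021 are mostly red in the upper part, and those of mice S_2011 and S_2014 are deep blue for lymphoid markers.

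Several members lie beside or inside other genes, which bears on whose reads were counted. On chromosome 9, 10 MMP genes form a cluster from 7272514 to 7699585 (427 kb, GRCm38), of which only Mmp3, Mmp12 and Mmp27 had enough reads to test. Adamts1 and Adamts5 are neighbours on chromosome 16 (85793827 to 85803113 and 85856173 to 85901828), 53.1 kb apart, and both had an unadjusted p under 0.05. Timp1, Timp3 and Timp4 lie within Syn1, Syn3 and Syn2, which are synapsin genes on the opposite strand. The exons of Syn3 cover 1733 bases (21.3%) of the Timp3 exons, those of Syn2 cover 90 bases (1.53%) of Timp4, and those of Syn1 cover 0 bases of Timp1. Whether strand was used in counting is not given in the sources used here, so reads of overlapping exons may have been assigned to either gene. Syn3 and Syn2 were low, with means of 2.95 and 9.21 CPM, against 397 and 266 CPM for Timp3 and Timp4 in AAV-GFP mice. The normalized table deposited beside the raw counts rests on another count of the reads: for Timp3 it holds 28825 reads in all mice, against 67210 in the raw table, for Mmp19 8775 against 13087, and for Mmp28 6982 against 8715. With the reads of that table the log2 fold change of Timp3 was -0.85 (edgeR adjusted p = 0.103), compared with -0.70 from the raw table. For the other 35 tested members, the totals of the tables were within 10% of each other.

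Promoter sequences are printed, to show how the start regions of these genes differ, for 4 of the lower members and for 2 MMPs of the chromosome 9 cluster. RefSeq start sites on GRCm38.p6 were matched for 36 of the 51 members (39 windows of 300 bases, 250 before and 50 after the start). The letters TGANTCA, to which AP-1 factors bind, were found in 8 members (7.81% of 32851 windows of all genes hold them), and all 8 lie in the chromosome 9 cluster: Mmp1a, Mmp1b, Mmp3, Mmp7, Mmp10, Mmp12, Mmp13 and Mmp20. The letters CTTTGA, read on both strands as a short form of the site of TCF/LEF factors through which Wnt signals act, were found in 6 members (5257 of all 32851 windows hold them): Adamts13, Adamtsl2, Mmp1a, Mmp7, Mmp21 and Timp1. A TATA box, TATAAA on the strand of the gene, was found in 11 members (8.32% of all windows). Of the 13 lower members 10 had a window, and 9 of these held neither of the first 2 motifs. A match is a description of the letters and not a site of binding. The 100 bases before the start are given 5′ to 3′ on the strand of the gene, with AP-1 and TATA matches in capitals. They are chr6:115252206-115252305 (minus strand) for Timp4, chr10:86300312-86300411 (plus) for Timp3, chr2:27079279-27079378 (plus) for Adamtsl2, chr16:85803114-85803213 (minus) for Adamts1, chr9:7445722-7445821 (plus) for Mmp3 and chr9:7347274-7347373 (plus, the second of 2 RefSeq starts) for Mmp12.
Timp4: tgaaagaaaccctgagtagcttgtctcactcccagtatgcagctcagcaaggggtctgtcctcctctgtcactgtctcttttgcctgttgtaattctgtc
Timp3: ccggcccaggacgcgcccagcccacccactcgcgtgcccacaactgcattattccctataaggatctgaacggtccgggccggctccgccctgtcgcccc
Adamtsl2: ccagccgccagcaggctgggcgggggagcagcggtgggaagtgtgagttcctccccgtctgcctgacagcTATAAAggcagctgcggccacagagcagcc
Adamts1: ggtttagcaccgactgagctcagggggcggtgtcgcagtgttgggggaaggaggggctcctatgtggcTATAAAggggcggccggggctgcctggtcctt
Mmp3: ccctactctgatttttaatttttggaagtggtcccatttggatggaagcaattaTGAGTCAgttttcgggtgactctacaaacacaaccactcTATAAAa
Mmp12: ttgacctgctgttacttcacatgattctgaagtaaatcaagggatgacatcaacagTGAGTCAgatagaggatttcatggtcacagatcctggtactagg
In Timp4 and Timp3 these 100 bases held no match. In Adamtsl2 and Adamts1 a TATA box began 30 and 32 bases before the start, and the CTTTGA of Adamtsl2 lay after the start, at base 45. In Mmp3 the AP-1 letters began 46 bases before the start. The windows also differed in composition: 67.0% of the bases were G or C for Timp3, 64.7% for Adamts1, 62.3% for Adamtsl2 and 53.3% for Timp4, compared with 40.0% for Mmp3, 40.7% for Mmp12 and a median of 52.7% over all genes.

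Genes that act with these families were also lower in part, and the counts below stand against 9.54% of all genes lower and 4.64% higher at an unadjusted p under 0.05. Proprotein convertases activate proMMPs and ADAMTS proenzymes, and the plasminogen system acts on proMMPs too. Pcsk5 (log2 fold change -0.9962), Pcsk6 (-0.60) and Furin (-0.18), which are convertases, and Serpine2 (-0.95), an inhibitor of thrombin and plasminogen activators, had unadjusted edgeR p-values of 0.00364, 0.0244, 0.0331 and 0.00737. Of 3 other MMP inhibitors tested, 2 were lower. Reck, a membrane-anchored one, was among them (12.2 ± 1.76 against 8.76 ± 1.49 CPM, SD, n = 6 each, log2 fold change -0.47, edgeR p = 0.00438, adjusted p = 0.170, exact permutation p = 0.00866), as was Tfpi2 (log2 fold change -0.89, adjusted p = 0.146, exact permutation p = 0.00433).

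Among known substrates of the proteases, 7 of 10 tested were lower at an unadjusted p under 0.05, with a median log2 fold change of -0.58. Vcan, the gene of versican and a substrate of Adamts1, Adamts4, Adamts5 and Adamts9, had 8.78, 14.1 and 16.3 CPM in AAV-GFP mice and 4.91, 6.87 and 11.1 CPM in AAV-Notum mice (log2 fold change -0.79, standard error 0.22, edgeR adjusted p = 0.166, exact permutation p = 0.0108). Eln, which encodes elastin, did not overlap between the groups (85.4 to 137 against 59.9 to 73.9 CPM, log2 fold change -0.59, edgeR adjusted p = 0.0909). Comp, cleaved by Adamts12, had a log2 fold change of -0.64 (edgeR adjusted p = 0.236), and the procollagen genes Col1a1, Col1a2, Col3a1 and Col5a1 had values of -0.52, -0.57, -0.53 and -0.68. Fibrillin microfibril partners held 4 of 9 genes lower and 1 higher: Ltbp3 (-0.64), Mfap5 (-0.56), Ltbp4 (-0.43) and Ltbp1 (-0.38) were lower, and Ltbp2 (0.60, edgeR adjusted p = 0.338) was higher. Of the genes for uptake and binding, 3 of 8 were lower, among them Lrp1, the receptor that clears MMPs, ADAMTS proteases and TIMP3 from outside the cell (1168 ± 283 against 753 ± 164 CPM, SD, n = 6 each, log2 fold change -0.63, edgeR adjusted p = 0.200), Mrc2 (-0.50) and Sdc4 (-0.36). Tolloid and other matrix proteases and their enhancers held 3 of 10 lower, Bmp1 (-0.45), Pcolce (-0.54) and Fap (-0.30). The ADAM sheddases held 2 of 9, Adam15 (-0.56) and Adam9 (-0.35), with a list median of 0.11. None of the genes named in these lists passed the adjusted threshold in edgeR.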

How the data were processed

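Whole-tissue RNA of 12 iWAT samples, 1 per mouse, was sequenced by the authors from TruSeq libraries and, per the labels, mapped to mm10 with STAR 2.3.1 and analysed with DESeq2. The deposited raw table holds counts of reads per gene. The second deposited table holds log2 values, log2 of reads divided by a size factor plus 1 as found here, and the reverse step returned whole reads for 100% of them (within 0.05 of a read). The counting program, annotation and use of strand are not given in the sources used here. No column belonged to no sample.

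The raw counts went into edgeR 4.0.16 (R 4.3.3): filterByExpr (minimum count 10, minimum total count 15), TMM, estimateDisp, glmQLFit and a two-sided glmQLFTest, with Benjamini-Hochberg adjustment over 15585 genes, called at 0.05. CPM use TMM library sizes, and a prior count of 2 was added before taking log2 CPM. Exact permutation tests compared group means of log2 CPM in each of the 924 ways to assign 12 mice to groups of 6. Fits were tested on simulated data. Positions and exon lengths are of GENCODE on GRCm38 and promoters of RefSeq. Genes given with full values were all TIMPs, members with an unadjusted p under 0.05 or no overlap, the 5 most abundant of each other family, and Mmp2, Mmp3 and Mmp9, which the study names as Wnt targets. Pathway genes were named at an unadjusted p under 0.05. 1 pathway gene, and the count of its list, are not reported here. The members and all gene lists were chosen with earlier results of these data known. Alternatives were DESeq2 1.42.0, limma-voom (limma 3.58.1), RLE size factors, other filters, a robust fit, covariates (RNA integrity number, lymphoid markers), the deposited normalized log2 values with limma, reads recovered from them, and mice left out. Covariates for adipocyte, progenitor, and joint lymphoid and hepatocyte markers were added after the data were seen. Python 3.11.15 and matplotlib 3.10.9 made the figures.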

Additional observations from a re-analysis of the deposited data

Results flagged for a closer look

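Each of the 38 tested members was searched in each group of 6 mice for a mouse far from the other 5, by the gap to its nearest neighbour as a share of the range (Dixon's criterion at 95%). Of 76 groups, 6 were marked, where chance at 1 in 20 gives 3.8, and all 6 were AAV-GFP groups. Mmp12 was 119.8 CPM in mouse S_2011, against 3.14 to 24.0 CPM in the other AAV-GFP mice. Adamts15, a versican-cleaving protease, was 50.3 CPM in mouse S_2021 (10.6 to 24.3 CPM in the others), and without that mouse its log2 fold change was -0.06 in place of -0.52. Mouse S_2012 was highest for Adamtsl3, 7.92 CPM (3.69 to 4.92 CPM in the others), and for Mmp17, 3.28 CPM (1.75 to 2.28 CPM). Mouse S_2022 was highest for Timp1, 3.63 CPM (0.834 to 1.68 CPM), and lowest for Adamts7, 3.45 CPM (4.29 to 4.76 CPM).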

How the results depend on the processing

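The count of all genes with an adjusted p under 0.05 moved most: 8 with edgeR as described, 436 with DESeq2, 14 with RLE size factors, 5 with genes kept from 1 count over all mice, 15 with at least 10 counts in every mouse, 4 with the lymphoid covariate, 4 with limma on the deposited normalized values, 1 without mice S_2011 and S_2014, 313 with the adipocyte covariate, 0 with the lymphoid and hepatocyte covariates, and 1 to 158 with 1 mouse left out. Members with an adjusted p under 0.05 were 0 in edgeR, 5 with DESeq2, 3 with the adipocyte covariate and 0 to 2 with 1 mouse left out (without mouse S_2022, Timp4 and Adamtsl2). Members lower at an unadjusted p under 0.05 were 13, 7 with the lymphoid covariate, 12 with the lymphoid and hepatocyte covariates and 10 to 17 with 1 mouse left out. Members higher were 0, 1 with DESeq2 and 1 with genes kept from 1 count (Mmp13 in both, 1 to 11 reads per mouse), and 0 to 1 with 1 mouse left out (Adamts20 without mouse S_2013 and Adamts3 without mouse S_2022). The median log2 fold change of the members was -0.37 to -0.23 with 1 mouse left out and -0.21 with RNA integrity as the covariate. Of 597 values of the 23 named members under the alternatives, 532 kept their direction and side of the threshold, 34 lost it, 22 gained it and 9 changed sign, all 9 for members that missed the threshold. Adamts10 was -0.091 with the lymphoid covariate, -0.068 with the adipocyte covariate, -0.081 with the lymphoid and hepatocyte covariates and -0.019 to 0.147 with 1 mouse left out (-0.019 without mouse S_2012 or mouse S_2032). Mmp19 was 0.066 with the lymphoid covariate and 0.025 with the lymphoid and hepatocyte covariates, with which Mmp14 was -0.027 and Timp1 -0.11. Without mice S_2011 and S_2014, Adamts5, Adamts9, Adamts12, Adamtsl4 and Adamtsl5 no longer had an unadjusted p under 0.05, and the cause was not tested. No paired analysis was possible because the mouse numbers differ between the groups. Depth limits genes with few reads, such as Adamtsl2, Mmp17 and Timp1.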
